A study of Mus musculus with 93 samples.

Results

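The transcripts of 10 immediate early response genes, Fos, Fosb, Jun, Junb, Atf3, Egr1, Egr2, Ier2, Ier3 and Dusp1, were followed by RNA-seq in mouse embryonic stem cells. They were chosen by name, with earlier results of these data known, and found by that name among the 33924 gene names of each count table. All cells were of the R1 line and were kept in a medium of serum and leukaemia inhibitory factor, and the labels give no serum withdrawal or stimulation before RNA was taken. There were 4 groups of 3 libraries. Set 1 held wild type cells and cells with the genotype Ring1b I53A, a point mutation in the PRC1 subunit that ubiquitinates histone H2A. Set 2 held wild type cells and cells with the genotype H1b/c/d/e-QKO, named for a knockout of 4 linker histone genes. How many clones each mutant line stands for, and whether replicates were separate cultures, the sources used here do not say, so p-values measure a spread between libraries that could be technical.

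Immediate early genes are transcribed soon after a cell meets a growth factor, serum, a stress or a mechanical stimulus, without new protein synthesis. Signals run through the ERK, JNK and p38 kinases and through calcium and cyclic AMP to factors that already sit at these promoters, among them SRF with its ternary complex partners, CREB and ATF proteins. Many of the products are themselves transcription factors. Fos and Jun proteins pair to form AP-1, which binds the site TGANTCA. ATF3 is a stress-induced member of the same bZIP class, EGR proteins are zinc finger factors, and DUSP1 is a phosphatase that switches MAP kinases off again. The transcripts are short-lived.

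Libraries held between 12585621 and 23378930 counts. In both set 1 groups replicate 3 had the fewest counts, its tables are named in another style than those of replicates 1 and 2, and it stood apart from them by a chi-square per degree of freedom of 21.2 to 27.3, against 2.19 to 4.41 for the other replicate pairs. Results in set 1 are therefore also given without it. Transcripts of the 4 linker histone genes in the QKO label were not clearly lower in these libraries. Hist1h1b had 4, 9 and 2 counts in wild type and 62, 53 and 72 in the mutant. Mean levels in the same order were 9.63 and 8.74 CPM for Hist1h1c. They were 0.491 and 0.460 CPM for Hist1h1d and 0.155 and 0.360 CPM for Hist1h1e, both near the limit of detection. RNA levels alone do not check the label, so the group is called the libraries labelled QKO. Rnf2, the gene of Ring1b, had a mean of 175 CPM in set 1 wild type and 88.7 CPM in I53A, but a point mutation need not change RNA, so this does not check the label. All 10 pluripotent stem cell markers were detected in every group, with a summed level of 5941 to 6598 CPM in set 1 wild type and 5111 to 5555 CPM in I53A. In I53A 1 of the 10 was called higher and 4 lower. All 10 primitive endoderm markers were called higher in I53A, with a summed level of 285 to 313 CPM in wild type and 2690 to 2813 CPM in I53A. Fibroblast feeder markers summed to 24.9 to 26.2 CPM and 58.7 to 63.9 CPM in the same groups. Dcn, Postn and Prrx1 were at 0 in wild type, and Lum was at 0 in I53A. Only 5 of the 10 feeder markers were tested, and 4 were called higher in I53A. Of all genes tested, 18.1% were called higher and 17.4% lower in I53A. In set 2 the sums were 223 to 237 CPM in wild type and 312 to 322 CPM in the libraries labelled QKO for primitive endoderm, and 24.2 to 24.96 CPM and 44.0 to 45.0 CPM for feeders. For pluripotent markers they were 7254 to 7358 CPM and 8254 to 8374 CPM. Under the QKO label 6 of 10 pluripotent markers were called higher and 3 lower. There, 5 of 8 tested endoderm markers and 3 of 5 tested feeder markers were called higher. Of all genes tested in set 2, 28.7% were called higher and 29% lower.

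In the mm9 annotation of the count tables, Jun is a single-exon gene on the minus strand of chromosome 4 (94715725 to 94718913), and 232 of its exon bases (7.28%) are shared with BC042782 on the opposite strand. Counting set no strand option, so reads from those bases cannot be told apart. Junb (chromosome 8, 87500811 to 87502617, minus strand) and Ier2 (chromosome 8, 87185230 to 87186751, minus strand) are also single-exon genes that share no bases with another gene. Fos lies on the plus strand of chromosome 12 (86814840 to 86818223) and Fosb on the minus strand of chromosome 7 (19888070 to 19895394). Atf3 lies on the minus strand of chromosome 1 (192994175 to 193007219), and Egr2 on the plus strand of chromosome 10 (66998223 to 67004936). Ier3 (35958629 to 35959868, plus strand) and Dusp1 (26642535 to 26645464, minus strand) are both on chromosome 17.

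Promoter windows of 8 of the 10 genes were held in a RefSeq table on GRCm38.p6, each running from 250 bases before to 50 bases after the annotated start. The 5 windows printed here belong to genes on which the comparisons turn: Jun and Dusp1, called in both mutants, Junb and Atf3, called in I53A, and Fos, called in neither. Capitals mark the letters TGACG of the cyclic AMP response element (CRE) on either strand, and TATAAA on the gene's own strand. They also mark the full CRE, TGACGTCA, which contains the shorter motif on both strands.
Fos, chr12:85473640-85473939, plus strand: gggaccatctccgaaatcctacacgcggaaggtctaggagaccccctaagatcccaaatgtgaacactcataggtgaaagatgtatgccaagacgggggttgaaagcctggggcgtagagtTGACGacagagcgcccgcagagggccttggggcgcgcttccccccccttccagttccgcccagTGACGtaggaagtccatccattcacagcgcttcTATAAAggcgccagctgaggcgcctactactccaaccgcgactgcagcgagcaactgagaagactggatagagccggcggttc
Jun, chr4:95052173-95052472, minus strand: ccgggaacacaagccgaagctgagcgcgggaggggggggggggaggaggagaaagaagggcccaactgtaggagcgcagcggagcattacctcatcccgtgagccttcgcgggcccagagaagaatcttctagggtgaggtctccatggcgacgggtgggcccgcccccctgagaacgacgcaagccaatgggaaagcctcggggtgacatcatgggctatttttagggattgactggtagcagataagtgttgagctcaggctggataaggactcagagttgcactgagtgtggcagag
Junb, chr8:84978699-84978998, minus strand: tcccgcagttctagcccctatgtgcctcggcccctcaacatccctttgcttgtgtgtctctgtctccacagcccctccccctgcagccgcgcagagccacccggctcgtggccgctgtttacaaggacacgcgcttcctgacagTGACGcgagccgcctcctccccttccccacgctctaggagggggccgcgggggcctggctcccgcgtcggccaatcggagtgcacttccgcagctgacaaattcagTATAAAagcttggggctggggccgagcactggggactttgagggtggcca
Atf3, chr1:191183284-191183583, minus strand: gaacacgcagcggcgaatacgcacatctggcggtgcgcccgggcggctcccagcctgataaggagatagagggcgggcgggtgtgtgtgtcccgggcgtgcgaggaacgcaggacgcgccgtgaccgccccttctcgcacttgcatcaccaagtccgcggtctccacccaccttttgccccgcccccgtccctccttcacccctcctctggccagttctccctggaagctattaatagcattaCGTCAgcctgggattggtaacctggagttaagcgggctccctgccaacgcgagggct
Dusp1, chr17:26508423-26508722, minus strand: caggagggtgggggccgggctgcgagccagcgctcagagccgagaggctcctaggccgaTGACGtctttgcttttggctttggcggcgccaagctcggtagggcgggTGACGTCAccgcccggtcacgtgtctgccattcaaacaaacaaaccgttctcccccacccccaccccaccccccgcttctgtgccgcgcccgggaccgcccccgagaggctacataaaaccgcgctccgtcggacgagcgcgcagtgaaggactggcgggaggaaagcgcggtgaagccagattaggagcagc
The shorter CRE motif was present in windows of 6 of the 8 genes, namely Fos, Fosb, Junb, Atf3, Egr2 and Dusp1, and in 20.8% of all 32851 windows in the table. Egr2 has several windows, some of them overlapping, and was counted once. Dusp1 alone among the 8 held the full CRE, which 1.79% of all windows hold. TATAAA was found in Fos and Junb (8.32% of all windows), the EGR site GCGNGGGCG in Fosb (5.55%) and the CArG box bound by SRF in Egr2 (1.63%). The AP-1 site was in none of the 8, against 7.81% of all windows. The window of Jun held none of the 6 motifs searched. A match is a run of letters, not a shown binding site, and no match says only that these letters are not in this window.

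In I53A, 9 of the 10 genes had enough counts to be tested and 7 were called at an adjusted p under 0.05, 3 higher (Jun, Atf3 and Ier3) and 4 lower (Junb, Egr1, Ier2 and Dusp1). Of all 15536 genes tested, 35.5% were called in that comparison, and with the replicate number as a block 8798 genes were called in place of 5512, while the member calls stayed at 3 and 4. Members called higher were 1 in place of 3 without replicate 1 of either group, and members called lower were 2 in place of 4 without I53A replicate 1 or 2. In the libraries labelled QKO, 8 of the 10 were tested and 2 were called, Jun higher and Dusp1 lower, while 57.7% of all 15439 tested genes were called. The median log2 fold change of the tested members was 0.044 in I53A and 0.055 in the libraries labelled QKO, next to -0.0010 and -0.0033 for all genes, with rises and falls side by side. Levels below are counts scaled by library size (CPM) on 1 scale for all 12 libraries, listed for replicates 1, 2 and 3 in that order. In bulk RNA, fewer cells expressing a gene and less of its RNA per cell cannot be told apart.

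**Figure D1:**
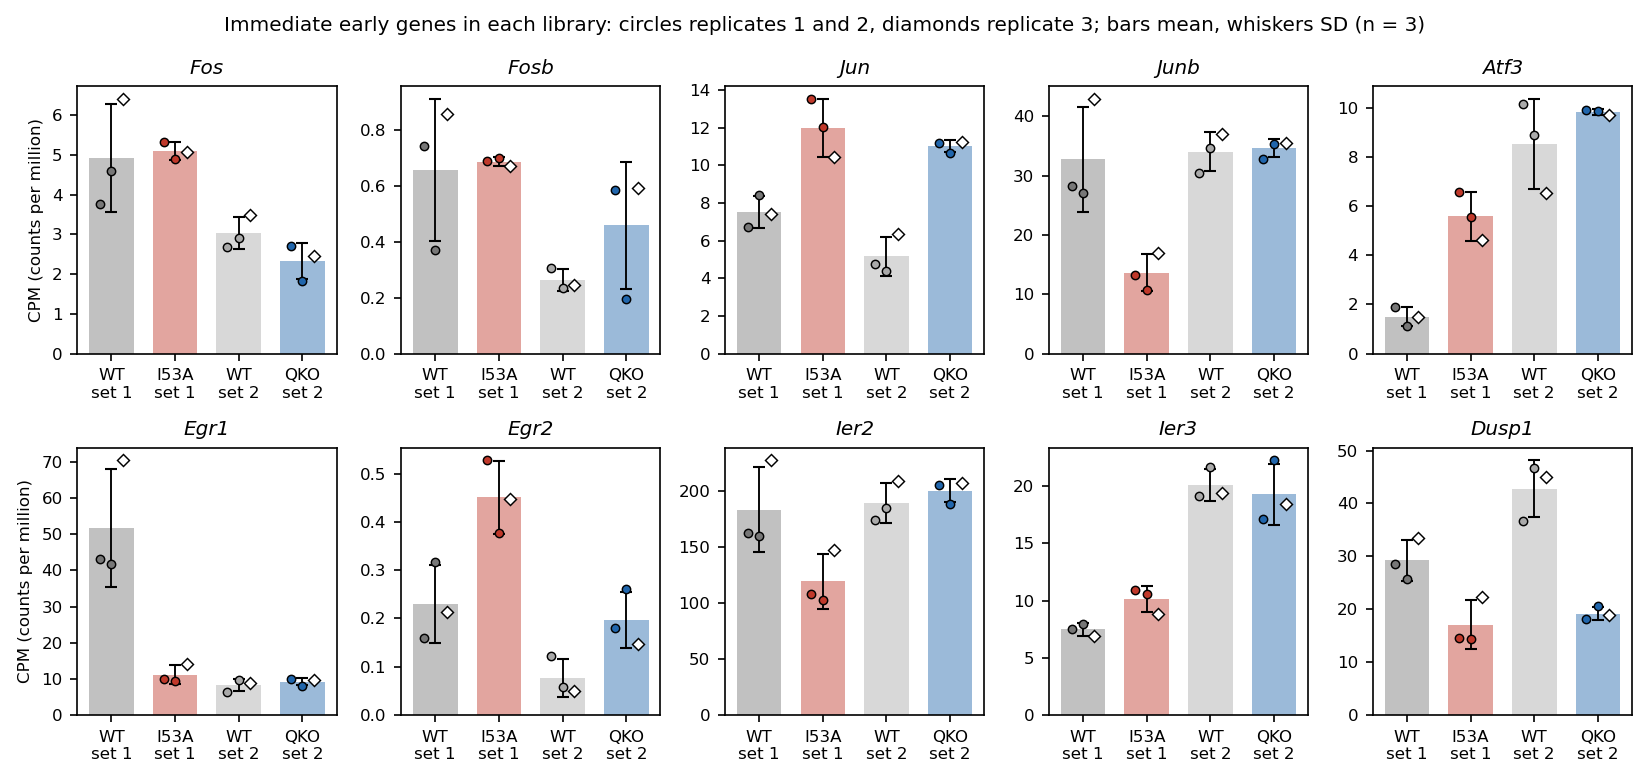
Level of each gene in each library. The x axis gives the 4 groups and the y axis CPM on a linear scale from 0, with bars for the mean of 3 libraries, whiskers for the SD, circles for replicates 1 and 2 and diamonds for replicate 3. Egr1 stands at 41.7 to 70.4 CPM in set 1 wild type and at most at 14.1 CPM in the other 9 libraries, while Jun is higher and Dusp1 lower in each mutant than in its own wild type.

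Fos, the AP-1 subunit that cannot pair with itself and needs a Jun partner, did not pass the test in either mutant. Fos had 3.76, 4.597 and 6.42 CPM in set 1 wild type against 5.33, 4.90 and 5.07 CPM in I53A. In set 2 Fos had 2.69, 2.92 and 3.48 CPM in wild type against 2.70, 1.83 and 2.47 CPM under the QKO label. The I53A libraries lay inside the range of their wild type, and the set 2 groups overlapped too. The log2 fold change was 0.044 ± 0.22 (SE) in I53A, with an approximate 95% interval of -0.39 to 0.48, and -0.36 ± 0.23 in the libraries labelled QKO, with an interval of -0.80 to 0.085 (edgeR adjusted p = 0.899 and 0.175). A log2 fold change of 1 or -1 lies outside both intervals.

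Fosb, a close relative of Fos, was near the limit of detection. It had 14, 7 and 12 counts in set 1 wild type, 13, 13 and 9 in I53A, 5, 4 and 5 in set 2 wild type and 13, 3 and 12 under the QKO label. The groups overlapped within each set. In I53A its log2 fold change was 0.072 ± 0.42 (edgeR adjusted p = 0.913). It was not tested in set 2, where the ratio of summed depth-scaled counts, labelled QKO over wild type, was 1.86 with a counting interval of 0.949 to 3.83.

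Jun, the AP-1 subunit that can pair with itself or with Fos proteins, rose in both mutants. Jun had 6.73, 8.40 and 7.41 CPM in set 1 wild type against 13.5, 12.1 and 10.4 CPM in I53A. In set 2 Jun had 4.77, 4.37 and 6.33 CPM in wild type against 11.2, 10.7 and 11.2 CPM under the QKO label. Every mutant library lay above every wild type library of both sets. The rise was 1.58-fold in I53A (log2 fold change 0.66 ± 0.15, edgeR adjusted p = 0.0108) and 2.13-fold in the libraries labelled QKO (1.09 ± 0.14, adjusted p = 1.2e-09). The I53A call was lost when replicate 1 of either group was left out, wild type (adjusted p = 0.0508) or I53A (0.0522), with a range of 0.00019 to 0.0522 over 13 alternatives. Neither of those fits paired libraries. With the replicate block, which called 8798 genes in all, Jun was at 0.66 ± 0.14 (edgeR adjusted p = 0.00087). The difference between the rises, -0.41 ± 0.21, did not pass the test (adjusted p = 0.153), but did without set 2 wild type replicate 3 (-0.61 ± 0.20, adjusted p = 0.0354, range over 18 alternatives 0.0354 to 0.313).

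Junb, a Jun relative that is a weaker activator in many settings, fell in I53A and did not pass the test in set 2. Junb had 28.3, 27.002 and 43.0 CPM in set 1 wild type against 13.3, 10.7 and 16.9 CPM in I53A. In set 2 Junb had 30.5, 34.6 and 37.1 CPM in wild type against 32.9, 35.4 and 35.6 CPM under the QKO label. The 3 I53A libraries were below the other 9, and replicate 3 was the highest in both set 1 groups. Junb was 2.44-fold lower in I53A (log2 fold change -1.28 ± 0.23, edgeR adjusted p = 0.0044) and was called lower under all 13 tested alternatives. For Junb in set 2 the log2 fold change was 0.022 ± 0.073 (interval -0.12 to 0.16, adjusted p = 0.815), and the effects differed by -1.29 ± 0.26 (adjusted p = 0.0018). Jun and Junb thus moved in opposite directions in I53A, whereas in set 2 Jun rose and Junb did not pass the test.

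Atf3, a bZIP factor induced by many stresses, had the largest rise among the members in I53A. Atf3 had 1.91, 1.11 and 1.497 CPM in set 1 wild type against 6.60, 5.55 and 4.62 CPM in I53A. In set 2 Atf3 had 10.2, 8.92 and 6.52 CPM in wild type against 9.94, 9.88 and 9.71 CPM under the QKO label. Set 1 wild type was the lowest of the 4 groups, and I53A reached the level of the lowest set 2 wild type library in 1 of 3 libraries. The rise in I53A was 3.67-fold (log2 fold change 1.88 ± 0.26, edgeR adjusted p = 0.00096). For Atf3 in set 2 the log2 fold change of 0.22 ± 0.13 did not pass the test (adjusted p = 0.144), but did without wild type replicate 1 (0.36 ± 0.14, adjusted p = 0.0282, range over 12 alternatives 0.0282 to 0.786). The effects differed by 1.69 ± 0.30 (adjusted p = 0.00044).

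Egr1, a zinc finger factor induced by ERK signalling through SRF, had the largest fall among the members. It lies on chromosome 18 and shares 8 exon bases with Gm17507 on the opposite strand. Egr1 had 43.1, 41.7 and 70.4 CPM in set 1 wild type against 9.87, 9.53 and 14.1 CPM in I53A. In set 2 Egr1 had 6.42, 9.74 and 8.88 CPM in wild type against 9.98, 8.05 and 9.57 CPM under the QKO label. Set 1 wild type stood above the other 9 libraries, and the I53A values overlapped those of both set 2 groups. The fall in I53A was 4.71-fold (log2 fold change -2.24 ± 0.26, edgeR adjusted p = 0.00062), and it was called under all 13 tested alternatives. For Egr1 in set 2 the log2 fold change was 0.15 ± 0.13 (adjusted p = 0.349), and the effects differed by -2.36 ± 0.33 (adjusted p = 0.00019).

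Egr2, a relative of Egr1 best known from hindbrain patterning and myelination, was barely detected. It had 3, 6 and 3 counts in set 1 wild type, 10, 7 and 6 in I53A, 2, 1 and 1 in set 2 wild type and 4, 4 and 3 under the QKO label. Each mutant group lay above its wild type in CPM, without overlap, which 25.4% and 30.1% of all tested genes also showed in set 1 and set 2. Egr2 itself did not pass the filter on low counts. The ratio of summed counts was 1.95 in I53A (interval for counting error 0.931 to 4.30) and 2.56 in the libraries labelled QKO (0.760 to 11.04), so neither interval excludes an equal level.

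Ier2, a nuclear protein of the immediate early response whose gene is a single exon, was the most abundant member. Ier2 had 163, 160 and 227 CPM in set 1 wild type against 108, 103 and 147 CPM in I53A. In set 2 Ier2 had 174, 185 and 209 CPM in wild type against 205, 189 and 207 CPM under the QKO label. All 3 I53A libraries were below the other 9. It was 1.56-fold lower in I53A (log2 fold change -0.64 ± 0.19, edgeR adjusted p = 0.0344). The call was lost when wild type replicate 3 (adjusted p = 0.0567) or either of I53A replicates 1 (0.111) and 2 (0.104) was left out, and with no filter on low counts (0.0643), in a range of 6.2e-11 to 0.111 over 13 alternatives. The fits that lost it did not pair libraries. With the replicate block, which called 8798 genes in all, Ier2 was at -0.64 ± 0.042 (edgeR adjusted p = 3.0e-09). For Ier2 in set 2 the log2 fold change of 0.087 ± 0.052 did not pass (adjusted p = 0.153), but did without wild type replicate 3 (0.16 ± 0.042, adjusted p = 0.00071, range over 12 alternatives 0.00071 to 0.719). The effects differed by -0.70 ± 0.22 (adjusted p = 0.0289), a call lost in 6 of 12 fits that left out a library.

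Ier3, an early gene linked to survival signalling by ERK and NF-kappaB, separated the sets more than the genotypes. Ier3 had 7.53, 7.98 and 6.92 CPM in set 1 wild type against 10.9, 10.6 and 8.80 CPM in I53A. In set 2 Ier3 had 19.1, 21.7 and 19.4 CPM in wild type against 17.1, 22.2 and 18.4 CPM under the QKO label. The I53A libraries lay just above their wild type and the set 2 groups overlapped. The rise in I53A was 1.34-fold (log2 fold change 0.42 ± 0.14, edgeR adjusted p = 0.0496). It was lost without wild type replicate 1 (0.127), 2 (0.0912) or 3 (0.0998), without I53A replicate 1 (0.161) or 2 (0.135) and with no filter on low counts (0.0960), in a range of 0.0137 to 0.161 over 13 alternatives. None of the fits that lost it paired libraries. With the replicate block, which called 8798 genes in all, Ier3 was at 0.42 ± 0.14 (edgeR adjusted p = 0.0151). For Ier3 in set 2 the log2 fold change was -0.064 ± 0.093 (adjusted p = 0.582). The difference between the effects, 0.50 ± 0.18, passed (adjusted p = 0.0370) but was lost in 9 of 12 fits that left out a library.

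Dusp1, the nuclear phosphatase that inactivates p38, JNK and ERK, fell in both mutants. Dusp1 had 28.6, 25.7 and 33.4 CPM in set 1 wild type against 14.6, 14.3 and 22.4 CPM in I53A. In set 2 Dusp1 had 36.7, 46.8 and 45.0 CPM in wild type against 18.2, 20.5 and 18.8 CPM under the QKO label. All 6 mutant libraries lay below all 6 wild type libraries. The fall was 1.74-fold in I53A (log2 fold change -0.80 ± 0.19, edgeR adjusted p = 0.0141) and 2.24-fold in the libraries labelled QKO (-1.16 ± 0.081, adjusted p = 2.6e-17). The I53A call was lost without I53A replicate 1 (adjusted p = 0.0635) or 2 (0.0552), in a range of 3.1e-08 to 0.0635 over 13 alternatives. The fits that lost it did not pair libraries, and with the replicate block Dusp1 was at -0.81 ± 0.094 (edgeR adjusted p = 2.0e-06). The difference between the falls, 0.38 ± 0.22, did not pass (adjusted p = 0.213), but did with the replicate block (0.35 ± 0.12, adjusted p = 0.0147, range over 18 alternatives 0.0147 to 0.508).

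**Figure D2:**
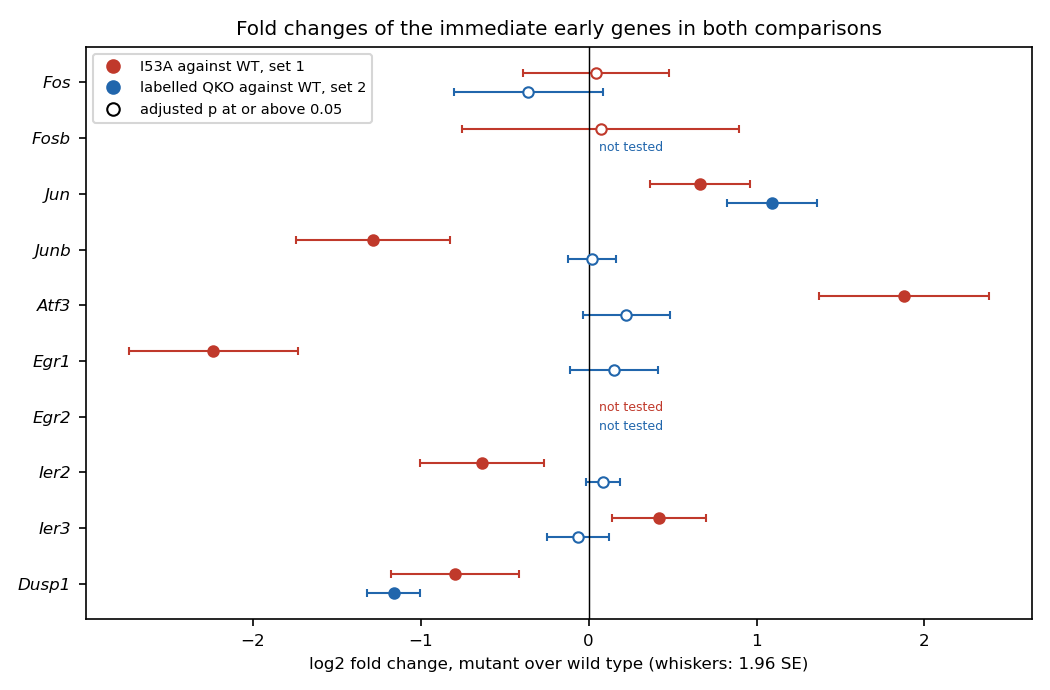
Log2 fold change of each gene, mutant over wild type, in I53A (red) and in the libraries labelled QKO (blue). The x axis is the log2 fold change, whiskers are approximate 95% intervals, filled points passed the test and open points did not. Jun lies to the right and Dusp1 to the left in both comparisons, while Egr1 (-2.24), Junb (-1.28) and Atf3 (1.88) leave 0 in I53A and not in the other.

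A test of the difference between the effects called 5 of the 9 tested members, Egr1, Junb and Ier2 lower and Atf3 and Ier3 higher in I53A relative to the libraries labelled QKO, against 36.1% of 16501 genes. The remaining members, Fos, Fosb, Jun and Dusp1, were not called. With 1 library left out, 2 to 4 members were called lower and 1 to 2 higher, with 1 in place of 2 called higher in 9 of the 12 fits. The groups did not overlap in I53A for 8 members, 4 higher and 4 lower (49.2% of all tested genes, of which 25.4% and 23.7% in these directions). In set 2 they did not overlap for 3 members, Jun and Egr2 higher and Dusp1 lower (61.4% of all tested genes, of which 30.1% and 31.3%).

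The wild type groups of the sets also differed, which bears on reading levels across sets. From set 1 to set 2, Atf3 was 5.62-fold higher (log2 fold change 2.49 ± 0.22), Ier3 2.67-fold higher (1.42 ± 0.13) and Dusp1 1.47-fold higher (0.55 ± 0.15). Egr1 was 6.16-fold lower (-2.62 ± 0.23), Fosb 2.44-fold lower (-1.29 ± 0.51), Fos 1.604-fold lower (-0.68 ± 0.22) and Jun 1.45-fold lower (-0.54 ± 0.16). These 7 of 9 tested members had edgeR adjusted p values from 1.9e-07 to 0.0407, and 57.4% of 16501 genes were called, 28% higher and 29.4% lower. The wild type groups did not overlap for 3 members higher and 5 lower, the fifth being Egr2, next to 30.9% and 31.8% of all genes, or 62.6% in either direction. Junb and Ier2 were not called, though with set 1 replicate 3 left out of both groups they were higher by 0.31 and 0.23 (adjusted p = 0.0030 and 0.00078). Fos lost its call in that fit (-0.46, adjusted p = 0.0705), without set 1 replicate 3 of wild type (0.0776) and without set 2 replicate 1 (0.0520). Fosb lost it in 9 of 11 alternatives, with adjusted p up to 0.132. The set, the differently named alignments and whatever else went with the set cannot be told apart here, and the set 1 wild type libraries enter both this comparison and that with I53A. Summed heat shock transcripts moved with the sets as well, from 2147 to 2456 CPM over the set 1 libraries to 9657 to 11025 CPM over those of set 2, and their part in these differences was not tested. Of the 9 heat shock genes 5 were called higher in set 2 wild type, among them the abundant Hsp90aa1 (1154 ± 31.5 to 6138 ± 390 CPM) and Hspa8 (196 ± 27.8 to 1926 ± 64.9 CPM), while Hspa1a, Hspa1b, Hsph1 and Dnajb1 were called lower. Of 11 tested genes of the integrated stress response other than Atf3, 8 were higher and 2 lower in set 2 wild type (median log2 fold change 1.37, next to -0.020 for all genes), with Chac1 at 5.39 ± 1.41 CPM in set 1 and 24.6 ± 1.08 CPM in set 2.

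Within set 1, replicate 3 was higher than the mean of replicates 1 and 2 for the same 4 genes in both groups. In wild type the ratio was 1.66 for Egr1, 1.56 for Junb, 1.41 for Ier2 and 1.23 for Dusp1. In I53A it was 1.45, 1.41, 1.396 and 1.55 in the same order, while the median over expressed genes was 0.986 in each group. Fos and Fosb were high in replicate 3 of wild type only, at 1.53 and 1.54, with 0.991 and 0.968 in I53A. Atf3, Jun and Ier3 in I53A went the other way, at 0.761, 0.816 and 0.817. The median coefficient of variation of the 8 members at 1 CPM or more was 23.7% in set 1 wild type and 19.0% in I53A, next to 10.6% and 10.8% for all such genes. In set 2 it was 13.0% next to 6.43% in wild type and 5.75% next to 5.55% in the libraries labelled QKO. The members thus varied more between replicates than the typical gene in 3 groups and hardly more in the libraries labelled QKO. Genes were not matched on level here, and in set 1 the variation includes the offset of replicate 3.

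Compared within replicates 1 and 2, and within replicate 3, the 7 members called in I53A kept their direction. With replicates 1 and 2 only, the log2 fold change was -2.14 ± 0.11 for Egr1, -1.22 ± 0.12 for Junb, -0.63 ± 0.059 for Ier2 and -0.93 ± 0.12 for Dusp1. For the members that rose it was 1.99 ± 0.28 for Atf3, 0.74 ± 0.16 for Jun and 0.46 ± 0.16 for Ier3. All 7 passed in this fit, with edgeR adjusted p from 1.4e-17 for Egr1 to 0.0154 for Ier3. It called 8343 genes in all, against 5512 with all 3 replicates, and took its spread from replicates 1 and 2 alone. The replicate 3 pair alone allows no test. Its values are differences of log2 CPM with 0.5 added, not fitted ones, which shrinks changes at low levels such as that of Atf3. It gave -2.28 for Egr1, -1.32 for Junb, -0.63 for Ier2 and -0.57 for Dusp1. For the members that rose it gave 1.36 for Atf3, 0.47 for Jun and 0.33 for Ier3. As plain CPM ratios, I53A over wild type, Atf3 was at 4.02 in replicates 1 and 2 and at 3.09 in replicate 3. Fos was at 0.27 ± 0.22 in the first pair of replicates (adjusted p = 0.307) and at -0.31 in replicate 3, so its direction was not the same in both.

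**Figure D3:**
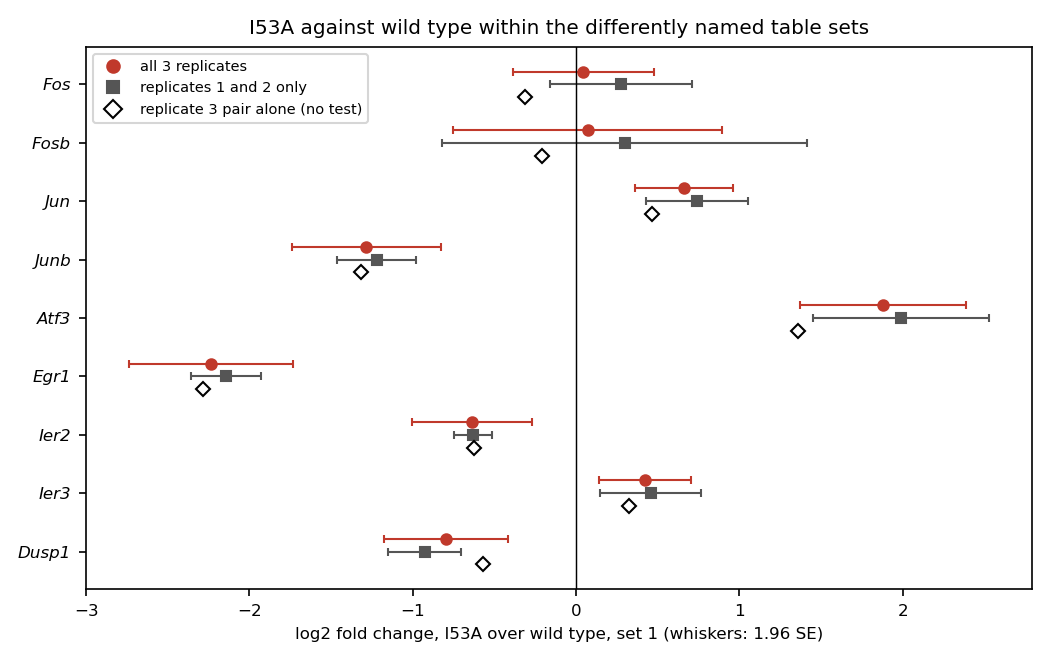
Log2 fold change of I53A over wild type for all 3 replicates (red circles), replicates 1 and 2 (grey squares) and the replicate 3 pair alone (open diamonds). The x axis is the log2 fold change and whiskers are approximate 95% intervals. Egr1, Junb, Ier2 and Dusp1 stay left of 0 and Atf3, Jun and Ier3 right of it in each, while Fos and Fosb change side.

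Levels between genes were compared per length, in TPM, computed from the counts and the deposited gene lengths. Ier2 was the highest member in every group, with mean TPM of 307 ± 61.8 (SD, n = 3) in set 1 wild type, 205 ± 47.1 in I53A, 331 ± 31.7 in set 2 wild type and 354 ± 18.3 in the libraries labelled QKO. In set 1 wild type it was followed by Junb (46.2 ± 12.2 TPM), Egr1 (42.5 ± 13.0), Dusp1 (27.7 ± 3.57), Ier3 (16.9 ± 1.27), Jun (6.01 ± 0.653), Fos (5.34 ± 1.43), Atf3 (1.94 ± 0.524), Fosb (0.446 ± 0.172) and Egr2 (0.173 ± 0.0599). There, Junb and Egr1 overlapped in their libraries, as did Jun and Fos, and the other neighbours did not. In I53A, Egr1 was the sixth at 9.44 ± 2.39 TPM, overlapping Jun (9.81 ± 1.14) above and Atf3 (7.34 ± 1.23) below. Ier3 (23.3 ± 2.21 TPM), Junb (19.8 ± 5.07) and Dusp1 (16.6 ± 4.88) formed an overlapping run above them. In set 2 wild type Junb (50.3 ± 4.87 TPM), Ier3 (47.3 ± 3.10) and Dusp1 (42.3 ± 5.18) overlapped likewise, and in the libraries labelled QKO Dusp1 at 19.1 ± 1.24 TPM lay clear of Junb and Ier3. Egr2 was last in all 4 groups.

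The wider pathway was read through lists of genes that contain none of the 10 members. Like the members, these lists were chosen with earlier results of these data known. The lists share some genes, among them Jund, Dusp4, Cyr61 and Ctgf, which are counted in each. Of 36 tested other immediate early genes, 13 were higher and 7 lower in I53A, with a median log2 fold change of 0.17 next to -0.0010 for all genes, where 18.1% of all genes were called higher and 17.4% lower. Cyr61, a matricellular protein that is also an SRF and YAP target, rose from 15.0 ± 1.92 to 48.6 ± 4.08 CPM, a log2 fold change of 1.68 ± 0.12 (edgeR adjusted p = 4.5e-05). Trib1, a pseudokinase that recruits a ubiquitin ligase, rose from 12.5 ± 0.626 to 31.2 ± 2.81 CPM, and Gem, a small GTPase, from 1.18 ± 0.219 to 2.82 ± 0.382 CPM. In the libraries labelled QKO 9 of 36 were higher and 14 lower, where 28.7% of all genes were called higher and 29% lower. Plk2, a polo-like kinase, rose there from 35.4 ± 1.49 to 74.8 ± 2.66 CPM (1.08 ± 0.060, adjusted p = 5.5e-22), and Ctgf, a matricellular protein, from 2.76 ± 0.661 to 5.51 ± 0.361 CPM.

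Among partners of AP-1 and ATF proteins, 1 of 12 was higher and 2 were lower in I53A, and 1 of 11 was higher and 5 were lower in the libraries labelled QKO. Of all tested genes, 18.1% were called higher and 17.4% lower in I53A, and 28.7% and 29% in set 2. Jdp2, which pairs with Jun proteins and represses AP-1 sites, fell in both, from 6.29 ± 0.657 to 2.27 ± 0.433 CPM in set 1 and from 12.8 ± 0.204 to 2.89 ± 0.113 CPM in set 2 (log2 fold changes -1.49 ± 0.21 and -2.14 ± 0.14, edgeR adjusted p = 0.0010 and 7.9e-19). Jund, the Jun family member that is least tied to stimulation, fell from 151 ± 12.7 to 89.8 ± 0.742 CPM in set 2 (-0.75 ± 0.050, adjusted p = 2.5e-18). In set 1 Jund was called lower, from 50.8 ± 12.7 to 24.9 ± 10.3 CPM (-1.05 ± 0.31, edgeR adjusted p = 0.0363). This call was lost without any 1 of wild type replicates 1, 2 and 3 (0.0646, 0.0623 and 0.109) or I53A replicates 1 and 2 (0.111 and 0.0867). It was also lost with no low-count filter (0.123), and over 13 alternatives the adjusted p ranged from 5.5e-12 to 0.123. Mafk, a small Maf protein, rose in I53A from 7.48 ± 0.548 to 12.9 ± 0.921 CPM. Nab2, a corepressor of EGR proteins that EGR proteins induce, fell from 13.7 ± 0.676 to 8.15 ± 0.881 CPM in I53A and from 10.7 ± 2.39 to 3.77 ± 0.305 CPM in the libraries labelled QKO (-0.76 ± 0.13 and -1.51 ± 0.15, adjusted p = 0.0031 and 5.5e-12).

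Genes of the ERK feedback list, whose transcripts ERK signalling induces and most of whose products damp it, were called higher in 7 of 11 cases in I53A. The other 4 did not pass the test, and the median log2 fold change of the list was 0.34. Egr1 fell in the same libraries, and what part ERK signalling had in either change was not tested. Dusp6, a cytoplasmic ERK phosphatase, rose from 50.6 ± 1.88 to 97.9 ± 5.98 CPM, a log2 fold change of 0.94 ± 0.082 (edgeR adjusted p = 9.9e-05), and Dusp4, a nuclear one, from 14.0 ± 0.662 to 24.1 ± 1.47 CPM (0.77 ± 0.10, adjusted p = 0.00093). Spry4, a Sprouty inhibitor of receptor signalling, was at 0.76 ± 0.19 (adjusted p = 0.0174), a call lost without wild type replicate 1 (0.0628) or 2 (0.0606), in a range of 5.1e-13 to 0.0628 over its alternatives. In the libraries labelled QKO 3 of 11 were higher and 5 lower, with Spry2 (1.02 ± 0.058) and Etv5 (0.96 ± 0.042) up and Spry1 (-0.91 ± 0.095) down. Of 22 genes of the ERK cascade itself, 2 were higher and 6 lower in I53A, among the latter the receptor Fgfr1 (-0.79 ± 0.10) and the docking protein Gab1 (-0.65 ± 0.092). In set 2, 4 were higher and 12 lower. The JNK and p38 cascade had 2 of 16 higher and 2 lower in I53A, and 2 of 15 higher and 9 lower in the libraries labelled QKO. The counts of these lists stand next to 18.1% of all tested genes called higher and 17.4% lower in I53A. In set 2 these shares were 28.7% and 29%. Mapk12, a p38 kinase, fell in both, from 9.86 ± 0.573 to 2.98 ± 0.606 CPM in set 1 and from 14.6 ± 1.07 to 4.05 ± 0.428 CPM in set 2.

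Of 12 genes of SRF, its ternary complex partners and CREB proteins, 2 were higher and 3 lower in I53A, and 5 were higher and 3 lower in set 2. For this list and the next, the shares of all tested genes called higher and lower were 18.1% and 17.4% in I53A, and 28.7% and 29% in set 2. Of 16 cytoskeletal targets of SRF and its MRTF partners, 6 were higher and 1 lower in I53A, led by Myl9, a myosin light chain (log2 fold change 1.71 ± 0.20, edgeR adjusted p = 0.00039). In set 2, 4 of 15 were higher and 4 lower. The integrated stress response, which runs through ATF4 to Atf3 in textbook accounts, had 1 of 10 other genes higher and 4 lower in I53A. The rest of the 10 were not called. The summed level of the 11 listed genes was 763 to 850 CPM in set 1 wild type and 763 to 884 CPM in I53A. What part this response had in the rise of Atf3 was not tested. Between the wild type groups Atf3 and 8 of the 11 were higher in set 2, as given above. In I53A Ddit3, the factor CHOP, fell from 21.2 ± 1.63 to 7.64 ± 0.107 CPM (-1.49 ± 0.12, edgeR adjusted p = 5.9e-05). Nupr1 fell there from 8.92 ± 0.953 to 3.66 ± 0.855 CPM and Chac1, a glutathione-degrading enzyme, from 5.39 ± 1.41 to 2.24 ± 0.190 CPM. In the libraries labelled QKO, 1 of 11 was higher and 4 lower, next to the same shares of all genes. The summed primitive endoderm and feeder markers were higher in I53A beside all of these counts, as given above, and their part in them was not tested.

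**Figure D4:**
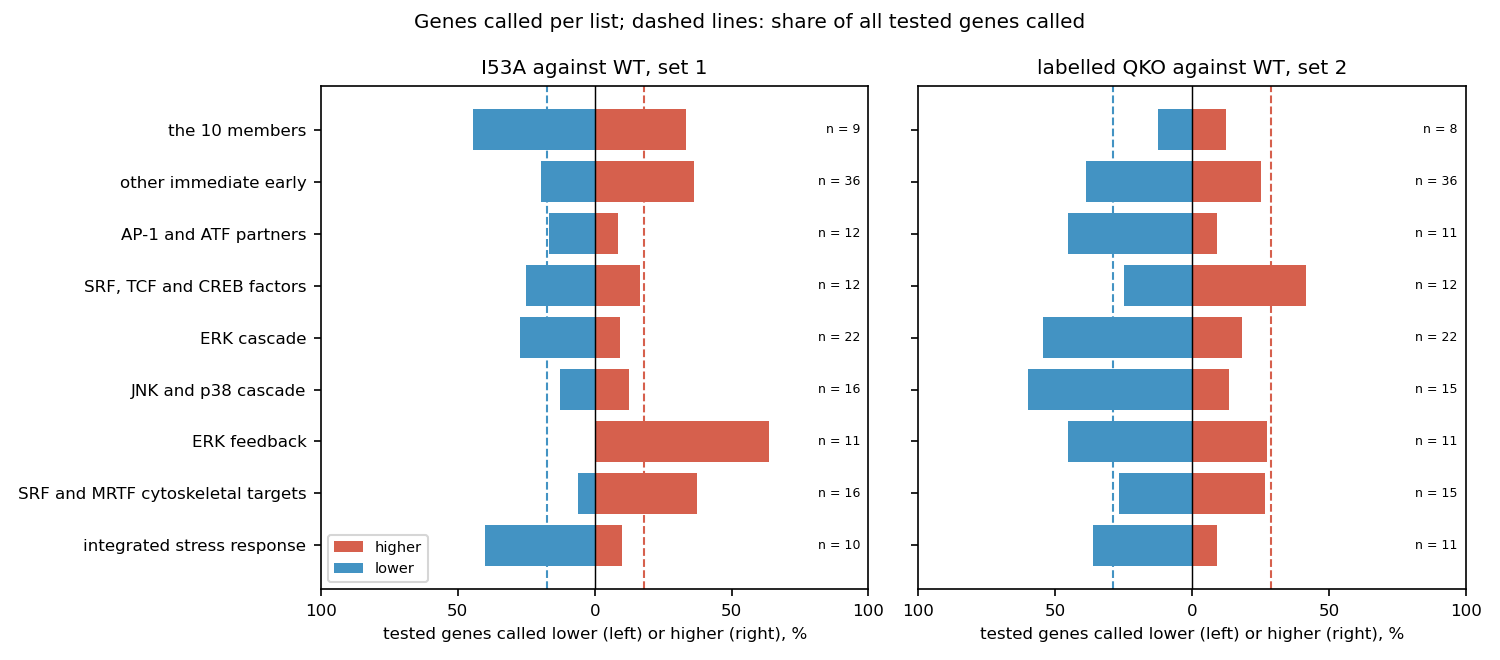
Share of the tested genes of each list called lower (blue, left) or higher (red, right), in I53A and in the libraries labelled QKO. The x axis is the percent of tested genes, n is their number, and dashed lines mark the share of all tested genes called in that direction. ERK feedback genes are at 7 of 11 called higher in I53A, and the 10 members at 3 higher and 4 lower of 9 tested.

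Genes whose log2 CPM followed each member most closely over the 12 libraries were ranked by Pearson's r among 12098 other expressed genes (12099 for Fosb). The 12 libraries share 4 group means, so r mainly reflects the pattern of the groups, and it is given as a description. Egr1 was close to Mtss1 (r = 0.985) and the non-coding RNA Meg3 (0.969). Atf3 was closest to Sycp1 (0.984), Junb to Slc3a2 (0.986), Jun to Fam102b (0.973), Dusp1 to Ptrf (0.983), Ier3 to Vegfa (0.988), Fos to Kif1c (0.965) and Fosb to Agap2 (0.915). Ier2 followed Gal3st3 (0.983), Dusp7 (0.973) and Junb (0.969), and this was the only case in which a member was among the 3 genes closest to another.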

How the data were processed

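Per the file headers, the authors' deposited tables hold raw fragment counts per gene name, made with featureCounts 1.6.3 on the GENCODE annotation of mm9, with no strand option set. Per the labels' protocols, libraries followed the Illumina TruSeq procedure. The submitters' processing notes also name HISAT2, Bowtie2, SAMtools and DESeq2 without versions. The alignments of set 1 and set 2 are named differently in the headers, and the sources used here do not settle which aligner made each. Of the 93 samples of the series, the 12 RNA-seq libraries were used and the chromatin assays were not analysed here.

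From the counts, each genotype comparison was fitted to its 6 libraries with edgeR 4.0.16 in R 4.3.3 (TMM scaling, filterByExpr defaults, robust quasi-likelihood test), two-sided, with Benjamini-Hochberg adjustment over all genes tested and a threshold of 0.05. The difference between the effects and the comparison of the wild type groups were fitted over all 12 libraries. CPM uses TMM scaling over all 12 libraries, so ratios of printed CPM differ slightly from fitted folds, and TPM uses the deposited gene lengths. Log2 fold changes are given ± SE and levels as mean ± SD, with n = 3. Intervals for low counts cover counting error only, at 95% confidence. The procedure was tested on simulated data.

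The members and lists were chosen with earlier results of these data known. Genes named from a list are its largest changes among called genes whose groups do not overlap and reach 1 CPM in the higher one, up to 3 per list and comparison, and for each member the 3 genes closest by Pearson's r, on log2 CPM with 0.5 added. One of these genes is not reported here. Same-numbered set 1 libraries deviated together from their group means (r = 0.285, 0.327 and 0.560). The main fits did not pair them, and the replicate block was run only as an alternative. The labels give only numbers, and replicates 1 and 2 deviated about as much with the other number (r = 0.257 and 0.279), so the data set apart replicate 3 and do not order 1 and 2. The names of the deposited tables number I53A replicates 1 and 2 the other way round from the sample titles, which the block follows. Alternatives were another scaling, 2 other filters on low counts, DESeq2 1.42.0, the replicate block, a pooled spread, set 1 without replicate 3, and each library left out.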

Additional observations from a re-analysis of the deposited data

Results flagged for a closer look

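For 5 genes the change in I53A against its wild type differed from the change in the libraries labelled QKO against theirs, by edgeR's test of the difference itself, with Benjamini-Hochberg adjustment over 16501 genes. On the log2 scale, as the I53A effect minus the other, the difference was -2.36 ± 0.33 (SE) for Egr1 (adjusted p = 0.00019), -1.29 ± 0.26 for Junb (adjusted p = 0.0018) and -0.70 ± 0.22 for Ier2 (adjusted p = 0.0289). It was 1.69 ± 0.30 for Atf3 (adjusted p = 0.00044) and 0.50 ± 0.18 for Ier3 (adjusted p = 0.0370). With 1 library left out, the call was lost in 6 of 12 fits for Ier2 and 9 of 12 for Ier3. Ier2 also lost it with no filter on low counts (edgeR adjusted p = 0.0626). Egr1, Junb and Atf3 kept theirs in all 12. In each of the 5, every one of the 3 I53A libraries lay on 1 side of all 3 of its wild type libraries, while the set 2 groups overlapped. For Egr1 and Atf3 the set 1 wild type group stood apart from the other 3 groups, and for Junb and Ier2 the I53A group did. Of all genes tested, 36.1% differed in this way, and set and processing cannot be told apart from the mutations in it.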

How the results depend on the processing

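Members called under RLE scaling, no filter on low counts, at least 1 CPM in 3 libraries, DESeq2 and a pooled spread kept their number within 1.5 times in each comparison they were run in. In set 1 the number of genes called rose from 5512 to 8798 with the replicate block and 8343 with replicates 1 and 2 only, with members at 3 higher and 4 lower in both. For wild type between sets, set 1 replicates 1 and 2 only gave 5 members higher and 2 lower in place of 3 and 4. In set 2 the same-numbered libraries did not deviate together (r = 0.017, -0.012 and 0.051), and the block moved the calls from 8903 to 9080 and no member call. The block changed 2 member calls elsewhere, Dusp1 in the difference between effects (0.35, adjusted p = 0.0147) and Fosb between wild type groups (adjusted p = 0.0519).

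Leaving out 1 library at a time gave 1 to 3 members higher, 2 to 4 lower and 3828 to 5917 genes called in I53A, and 1 to 2 higher, 1 lower and 8071 to 8743 genes in set 2. The difference between effects ranged over 1 to 2 higher and 2 to 4 lower, and wild type between sets over 3 higher and 2 to 4 lower. Uncalled values changed sign in some of these fits, with ranges of -0.12 to 0.27 for Fos and -0.24 to 0.29 for Fosb in I53A, -0.054 to 0.085 for Junb, -0.0028 to 0.26 for Egr1 and -0.17 to 0.018 for Ier3 in set 2, and -0.055 to 0.30 for Junb and -0.060 to 0.23 for Ier2 between wild type groups. The cause was not tested. The replicate 3 pair alone gives values and no count of calls. RLE scaling moved the median of all genes by 0.007 (log2) in each set. Depth limits Fosb and Egr2, with at most 14 counts in any library.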
